A study of Homo sapiens with 4 samples.

Results

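FN1, the gene of fibronectin, was followed through the well C03 of a TGF-β PCR array, which is 1 of 84 target wells on the plate (A01 to G12). The deposited values carry well positions and no gene names. C03 was chosen by its measured values: its 3 deposited fold changes are those listed for FN1 in the study, so the pairing of well and gene rests on that match, and the values below describe the well without testing it. The study had itself picked FN1 from this array, as 1 of 4 genes, for its significant modulation and its function. An outlying rank of the well is therefore partly built into that choice. At 2 decimals, the 5FU value was found in 2 target wells (C03 and E09), the 5FU+LiCl value in 11 and the 5FU+SB431542 value in 2 (C03 and F02), and C03 was the only target well that held all 3.

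The study asked which genes of the TGF-β pathway change when chemoresistant colon carcinoma cells meet 5-fluorouracil (5FU), and whether a GSK3 inhibitor or an inhibitor of the TGF-β type I receptor (TGF-βRI) alters that response. HCT116p53KO cells, a human colorectal carcinoma line without p53 and resistant to the drug, were grown in 3D on a thin layer of Cultrex, a commercial basement membrane extract. The transcripts were quantified by SYBR Green RT-PCR on an RT2 profiler array, and 4 groups were compared, each with 1 deposited sample. Control cells were untreated; the 5FU group received 5FU at 200 μM for 72 h; the 5FU+LiCl group received lithium chloride, which inhibits GSK3, at 10 mM and the 5FU+SB431542 group received the TGF-βRI inhibitor SB431542 at 10 μM, both from 24 h before the same 5FU treatment. All groups share the p53 deletion and the matrix, the cells are of 1 line, and no group with LiCl or SB431542 alone was analysed here. Although 2 independent experiments per group were described in the methods, each well has 1 value per comparison, so no replicate spread, SD or test can be given for any of them. The study lists a p-value beside each FN1 fold change, which cannot be recalculated from these values.

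Fibronectin is a secreted glycoprotein that assembles into fibrils around cells and links integrins to collagens and other matrix components. TGF-β ligands bind a pair of serine/threonine kinase receptors, the type I receptor phosphorylates SMAD2 and SMAD3, and these enter the nucleus with SMAD4 to alter transcription. FN1 is a widely used readout of this pathway, and its product is known in carcinomas for its part in matrix remodelling, adhesion and migration.

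The FN1 promoter is shown because the array reads transcripts and this is the stretch from which they start. In RefSeq (GRCh38.p14) the window of 250 bases before to 50 bases after the start of the gene lies at chr2:215436019-215436318 on the minus strand, so it holds the upstream flank and the first transcribed bases. The capitals mark a cyclic AMP response element and a CCAAT box.
FN1 promoter: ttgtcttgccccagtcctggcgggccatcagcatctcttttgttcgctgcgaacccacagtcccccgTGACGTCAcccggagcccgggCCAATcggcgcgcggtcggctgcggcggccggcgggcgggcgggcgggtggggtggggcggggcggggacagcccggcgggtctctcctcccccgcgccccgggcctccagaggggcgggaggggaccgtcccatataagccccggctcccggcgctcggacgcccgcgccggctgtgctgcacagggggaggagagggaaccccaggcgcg
The response element TGACGTCA, which is its own reverse complement, lies 183 to 176 bases before the start, and these letters occur in 649 of 35116 RefSeq promoter windows of this length (1.85%). The CCAAT box, searched as CCAAT and as ATTGG on the other strand, lies 162 to 158 bases before the start and occurs in 12155 windows (34.6%). Of the SMAD motifs that were searched, neither GTCTAGAC nor CAGAC has a match in this window, the latter searched also on the other strand as GTCTG. They occur in 71 windows (0.202%) and 15894 windows (45.3%). No other SMAD motif was searched, so the window is not shown to lack SMAD sites. The searched motifs do not overlap in the FN1 window, and a match of letters describes the sequence only.

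As compared to control cells, the FN1 well was several-fold higher after 5FU, it was at the same value when LiCl was added, and it was lower, though above control, when SB431542 was added. The LiCl value differs from the study's separate qRT-PCR experiments, normalised to B2M. From those the study reports that LiCl as well as SB431542 counteracted the FN1 increase. Those measurements are not among the values used here. The deposited ratios hold the housekeeping well H05 at exactly 1. For C03 they were 5.67-fold for 5FU against control (log2 2.50), 1.00-fold for 5FU+LiCl against 5FU (log2 0.0060) and −2.83-fold for 5FU+SB431542 against 5FU (log2 −1.50). A negative fold is the reciprocal of a ratio below 1. Those are the values on which the well was selected. Relative to the mean log2 of all 5 housekeeping wells (H01 to H05), the reference used from here on unless stated, the same values were 4.59-fold (log2 2.20), 1.00-fold (log2 0.0062) and −2.15-fold (log2 −1.10). The reference thus made the 5FU difference and the SB431542 difference smaller and left the LiCl value where it was.

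Setting each group against control gives the order of the FN1 levels. FN1 was 4.59-fold above control in 5FU cells, 4.61-fold in 5FU+LiCl cells (log2 2.21) and 2.14-fold in 5FU+SB431542 cells (log2 1.10). The 5FU and 5FU+LiCl groups were neighbours in that order that cannot be told apart, followed by 5FU+SB431542 and then control. Directly compared, FN1 was −2.16-fold in 5FU+SB431542 as against 5FU+LiCl cells (log2 −1.11). On the log2 scale, 49.9% of the 5FU difference was left with SB431542 (40.0% on the deposited scale, and from 0.00173% with H02 alone to 80.0% with H03 alone) and 100.3% with LiCl.

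The choice of the housekeeping well was the only source of spread that these data allow to be measured. It is a spread of the housekeeping wells, the same for every target well, and not of the FN1 measurement. The housekeeping wells themselves differed by up to 1.51 log2 in the deposited 5FU comparison, where H02 stood apart from the others. With each of the 5 wells as the only reference, FN1 was higher after 5FU each time, from log2 0.99 with H02 to 2.51 with H04 (SD 0.67 over the 5 references). It was lower with SB431542 than with 5FU alone each time, from −1.51 with H04 to −0.50 with H03 (SD 0.42), and it was also lower with SB431542 than with LiCl each time, from −1.52 with H01 to −0.50 with H03.

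The remaining FN1 values differed in how far their direction held over these references. The LiCl value had no settled direction, since it ran from −0.50 with H04 to 0.52 with H01 (SD 0.36). FN1 in 5FU+LiCl cells was above control with every reference, from 1.00 with H02 to 3.01 with H01. In 5FU+SB431542 cells it ranged from 1.72e-05 with H02, which is no difference from control, to 2.0 with H03 (SD 0.74), so the distance of this group from control depended on the housekeeping well.

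**Figure D1:**
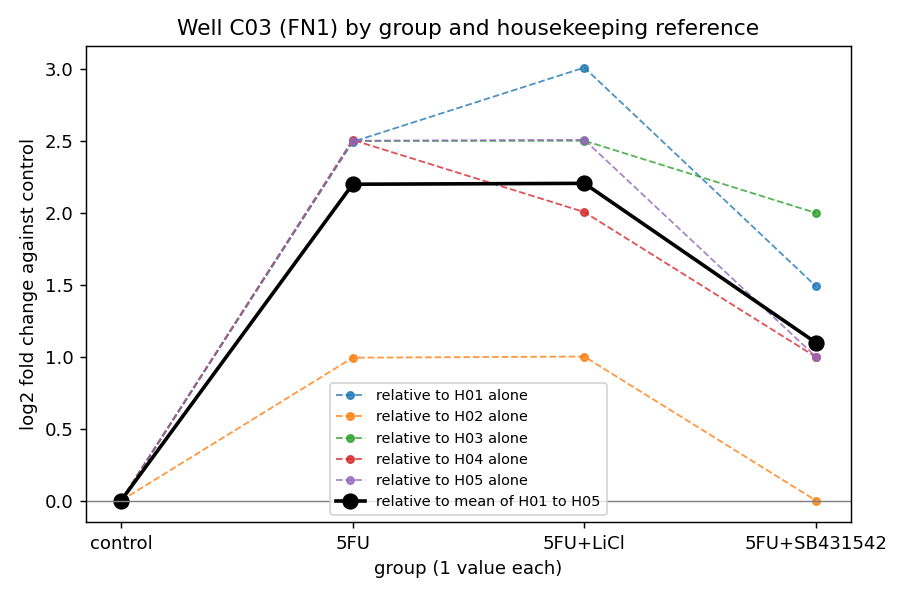
FN1 well C03 in the 4 groups (x axis, 1 value each) as log2 fold change against control (y axis), relative to the mean of H01 to H05 (thick black line) and to each housekeeping well alone (dashed lines). The black line stands at 2.20 with 5FU, 2.21 with 5FU+LiCl and 1.10 with 5FU+SB431542; with H02 alone the last value is at control.

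The plate gives the background for these values. The threshold for calling a difference was 0.25 log2 on either side of 0. After 5FU, 30 of 84 target wells (35.7%) were called higher as FN1 was, 30 were lower and 24 lay within the threshold, around a median of 0.19 log2. On the deposited scale the split was 54 higher and 20 lower, and with H02 alone 14 higher and 62 lower, with FN1 higher in each case. C03 ranked 8 from the highest and lay 2.01 log2 above the median, in a plate whose extremes were G05 (4.23) and C02 (−1.82). Because this contrast helped to choose the well, the rank is a description.

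The deposited log2 values cluster near multiples of 0.5, so many wells share a step, and a rank within a step carries no order; extremes are named by value. The 84 include 7 wells with identical ratios in all 3 comparisons (deposited log2 0.49 for 5FU, 0.0076 for LiCl and −0.50 for SB431542). They lie within the threshold relative to the mean of H01 to H05 and are called on the deposited scale for 5FU and SB431542, and whether their targets were detected was not examined here. At the FN1 step for 5FU stood 3 other wells, E10, E09 and C04, with 2.20 log2 each, which places C03 anywhere from rank 6 to 9. The next well below was G11 with 1.79. FN1 was therefore among the 9 wells highest after 5FU, with 5 wells on higher steps and 75 on lower ones.

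Adding LiCl to 5FU placed FN1 in the most populated step of the plate. In that comparison 45 of 84 target wells (53.6%) were called in either direction, 26 higher and 19 lower, while FN1 was among the 39 within the threshold. With H01 alone 65 were higher and 5 lower, and with H04 alone 2 were higher and 58 lower, and FN1 went with the larger group both times. The plate ran from −1.0 in D03 to 1.01 in G07, and C03 differed from the median by −0.0025 log2. Its neighbours G04, B04, F12 and E01 lay between 0.0052 and 0.0076 log2 and C03 shared the step with 38 other wells, so its rank of 54 could be anything from 27 to 65.

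Adding SB431542 to 5FU placed FN1 near the lower end. Here 38 of 84 target wells (45.2%) were called lower as FN1 was, 21 were higher and 25 lay within the threshold, around a median of −0.10. On the deposited scale 4 were higher and 63 lower, and with H03 alone 46 were higher and 13 lower, with FN1 lower in each case. C03 ranked 8 from the lowest and was 1.00 log2 under the median, between the highest well, B05 (0.92), and the lowest, D01 (−1.60). It shared its step with 9 other wells, among them its neighbours E06, F02, E07 and B04 (each −1.10 or −1.11), and 3 wells stood on a lower step.

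**Figure D2:**
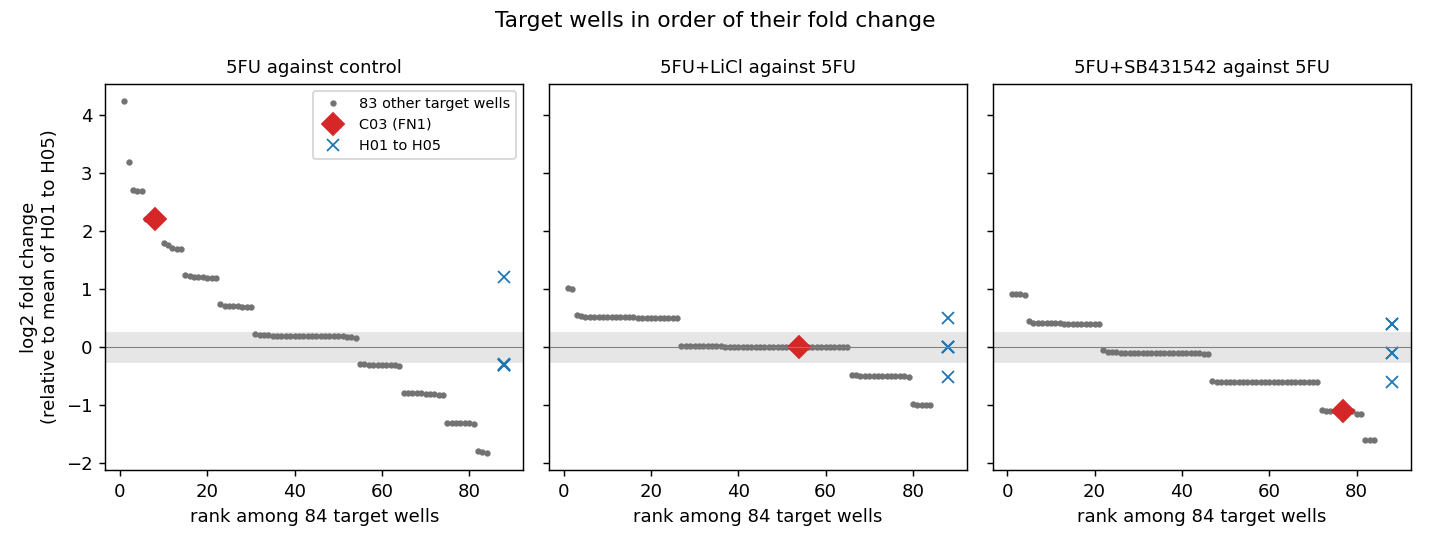
The 84 target wells in order of their log2 fold change relative to the mean of H01 to H05 (y axis) against rank (x axis) in the 3 deposited comparisons, with the 5 housekeeping wells as crosses at the right and the range within 0.25 log2 shaded. C03 (red) is at rank 8 with 5FU, 54 with LiCl added and 77 with SB431542 added, each time on a plateau of wells with nearly the same value.

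Against control, 36 of 84 target wells (42.9%) were higher in 5FU+LiCl cells and 27 (32.1%) in 5FU+SB431542 cells. FN1 was called higher in both, at rank 8 from the highest with LiCl, as after 5FU alone, and at rank 18 with SB431542. With H02 alone the SB431542 call of FN1 was lost (1.72e-05 log2). Between the co-treatments, 38 target wells (45.2%) were lower with SB431542 than with LiCl, FN1 among them. In this last comparison C03 shared the lowest step of the plate with 14 other wells, and 0 wells stood on a lower one. The counts moved with the housekeeping well, from 14 (H02) to 67 (H01) higher with LiCl, from 16 (H02) to 58 (H03) higher with SB431542 and from 15 (H03) to 66 (H01 and H05) lower between the co-treatments. These comparisons were formed from the deposited ones and share their samples.

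FN1 was set beside the other wells with a large 5FU difference, those on a step of 2 log2 or more in the deposited values, a limit chosen after the values were seen. There were 14 such wells, FN1 included. With SB431542, 5 of them were lower than with 5FU alone, 7 lay within the threshold and 2 were higher, with a median of −0.096 log2. Over all 84 target wells, 38 were lower (45.2%), 25 within and 21 higher, with a median of −0.10. On the deposited scale 12 of the 14 were lower and 0 higher (63 and 4 of the 84). With H03 alone 1 of the 14, which was FN1, was lower and 9 were higher (13 and 46 of the 84). FN1 alone stood on the lowest SB431542 step of the 14 (−1.10 log2), with A03, C10, D10 and G03 together on the next (−0.59 to −0.60). This order is fixed whatever the reference, because the same value is subtracted from each well, and so it is no sign of stability. With LiCl, 4 of the 14 were lower, 7 within the threshold and 3 higher, and FN1 stood in the middle group (10 were higher with H01 alone and 11 lower with H04 alone, FN1 among them). Over all 84 target wells, 19 were lower, 39 within and 26 higher (65 higher with H01 alone and 58 lower with H04 alone).

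The same 14 wells differed in how much of their 5FU difference was left. With SB431542 it ranged on the log2 scale from 49.9% in C03 and 64.4% in C10 to 118% in E09, with a median of 94.5%. With LiCl it ranged from 41.3% in C10 and 41.8% in D10, which share a step, to 129% in G11, with a median equal to the FN1 value at 100.3%. These shares depend strongly on the reference: with LiCl, C10 ran from −103% with H02 alone, below control, to 75.6% with H01 alone, and G11 from 100.2% with H04 alone to 189% with H02 alone. Among the 14, the lowest share with SB431542 was in C03, except with H02 alone, where C03, C10 and D10 were all at control within the tie limit of 0.01 log2. Relative to the mean of H01 to H05 all 14 wells were above control in both co-treatments. This follows largely from their choice by a large 5FU value, which is a term of each sum against control and of each share. The smallest 5FU value among them was 1.69 log2 (D10). The lowest target well on the plate was −1.0 with LiCl and −1.60 with SB431542, each against 5FU. Being above control is therefore no test of either co-treatment. With H02 alone 11 were above control in each co-treatment. With LiCl 1 was then within the threshold and 2 were below control, and with SB431542 3 were within the threshold and 0 below. C10 and D10 were tied with C03 for the lowest value against control with SB431542 (1.09 log2 each, against 1.10).

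The limit decides how many wells share that step with FN1. With a limit of 1.5 log2, 22 wells qualified, and B12 and F12 stood on the SB431542 step of C03 (deposited log2 −1.55 and −1.49 against −1.50). Both had a lower share of their 5FU difference left with SB431542 than C03, at 3.99% and 10.6% against 49.9%, so C03 had the lowest share only among the wells past the higher limits. The shares of B12 and F12 were 63.4% and 67.8% with H03 alone, against 80.0% in C03, and with H02 alone both wells had a 5FU value within the threshold (−0.0088 and 0.016 log2), so that no share can be given. With 2.5 log2, 9 wells qualified and C03 was alone on it. At each of these limits 0 wells stood on a lower step.

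The 3 wells with the same 5FU step as FN1 all parted from it with SB431542, and C04 also did so with LiCl. With SB431542 added, C04 was at −0.095 log2 and E10 at −0.094, both within the threshold, and E09 was higher (0.41), whereas C03 was at −1.10. These calls turn on the reference: on the deposited scale C04 and E10 were lower (−0.50 and −0.49) and E09 was within the threshold (0.0063), and with H03 alone all 3 were higher (0.51, 0.51 and 1.01), with C03 lower each time. With LiCl added, E09 (−0.0019) and E10 (0.012) lay at the FN1 value and C04 was higher (0.51). With H01 alone E09 and E10 were higher as FN1 was (0.51 and 0.52), and with H04 alone they were lower as FN1 was (−0.51 and −0.50) and C04 was within the threshold (0.0033). The 4 wells of this 5FU step thus spread over SB431542 values up to 1.5 log2 apart by step.

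The reverse comparison started from the co-treatments. Of the 39 target wells at the LiCl step of FN1, 5 also had its SB431542 step of −1.5 log2 on the deposited scale (B04, C03, E07, F05 and F12), and 0 had a lower one. Over all 84 target wells, 10 had that SB431542 step and 3 had a lower one. The 5FU values of the 5 wells were −0.79, 2.20, −0.29, −0.82 and 1.22 log2. Wells with the co-treatment pattern of FN1 included 2 that were higher after 5FU and 3 that were lower (2 and 2 on the deposited scale, with E07 within the threshold, and 1 and 3 with H02 alone, where FN1 was the only one higher). Over all 84 target wells, 30 were higher and 30 lower (54 and 20 on the deposited scale, 14 and 62 with H02 alone). With 5 wells, no difference from the plate can be read from these counts.

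**Figure D3:**
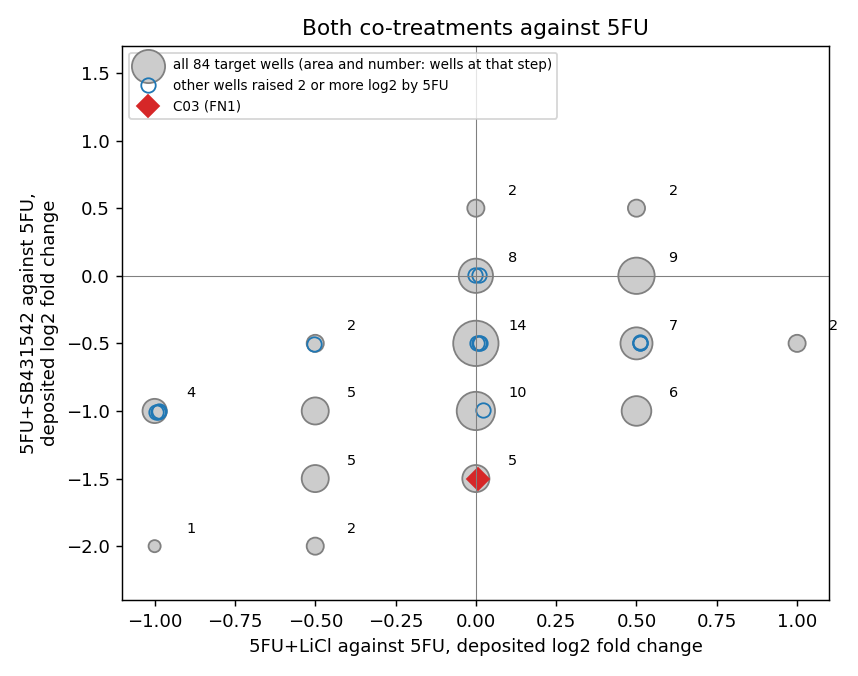
Deposited log2 fold change of 5FU+LiCl against 5FU (x axis) and of 5FU+SB431542 against 5FU (y axis), with the 84 target wells drawn as grey circles at their nearest step of 0.5 log2, labelled with the number of wells there. C03 (red) is at the step of 0 with LiCl and −1.5 with SB431542, which 5 target wells share, and none of the other wells with a 5FU step of 2 log2 or more (blue rings) stands there.

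The wells most like FN1 over the 3 deposited comparisons, by Euclidean distance of their log2 values, were F12 (0.98), E10 (1.01), D04 (1.12), G03 (1.12) and B12 (1.12). The median distance of the 83 other target wells was 2.28 and the farthest was 4.27. F12 shared both co-treatment values with C03 and had a smaller 5FU difference (1.22 log2), while E10 shared the 5FU and LiCl values and had a different SB431542 value. By step, F12 and E10 were equally far from C03 (1 log2 in a single comparison), and D04, G03 and B12 were tied with G09 and C04 (1.12 each), so the 5 are part of a group of 7. No well had the FN1 values in all 3 comparisons.

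Wells matched to 3 other genes give a comparison by name. ACVRL1, a type I receptor of the TGF-β superfamily known for its role in angiogenesis, ID1, an inhibitor of DNA-binding helix-loop-helix factors, and BCL2L1, whose main product blocks apoptosis, were paired with A03, D01 and A10 on 2 of the 3 comparisons, 5FU and SB431542, so those pairings rest on less than that of FN1. The LiCl values of these 3 wells differ from those listed for the genes, and they are given below as values of the wells, from which no contrast between named genes in the LiCl comparison is drawn. A03 (ACVRL1) was 6.48-fold above control after 5FU and −1.52-fold with SB431542, with a LiCl value of −1.99-fold. D01 (ID1) was below control after 5FU (−2.47-fold) and lower again with SB431542 (−3.04-fold), with a LiCl value of −1.41-fold, and A10 (BCL2L1) had nearly the same values (−2.47, −3.02 and −1.41-fold). These sizes moved with the housekeeping well: with H02 alone the 5FU value was log2 1.49 in A03 (2.70 relative to the mean) and −2.51 in D01 and A10 (−1.30 relative to the mean), and it was about −1.0 in D01 and A10 with each other well alone. The LiCl values of D01 and A10 were within the threshold with H01 alone (0.017 and 0.018 log2) and −1.0 with H04 alone. All 4 wells were lower with SB431542 than with 5FU alone, except that with H03 alone ACVRL1 was at −0.0028 log2. Over all 84 target wells, 38 (45.2%) were lower with SB431542 (63 on the deposited scale and 13 with H03 alone). The study picked these 4 genes from this array partly for their significant modulation, so a shared direction among them is no independent result.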

How the data were processed

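RNA of 4 groups of 3D-cultured cells, 1 sample each, was measured by RT2 profiler PCR array. The authors deposited a linear ratio (fold change) per well for 3 comparisons, made as 2 to the power of minus ΔΔCt, with H05 at exactly 1 in each. These comparison columns were used because the well is defined by them. A table of Ct values holds 4 columns whose names match no sample, and these were not used, so no Ct level or rank by Ct is given. Ratios were put on the log2 scale and centred on the average of the 5 housekeeping wells (H01 to H05) in the same comparison. The methods describe normalisation to 5 housekeeping genes, whereas a ratio of exactly 1 in H05 is what normalisation to that well alone would give. Wells H01 to H05 were taken as those of the 5 genes from their place after the 84 targets. Comparisons with control and between co-treatments were sums or differences of log2 values. With 1 value per group no test or limma fit was possible. The threshold was 0.25 log2. Steps were multiples of 0.5 log2 and ties lay within 0.01.

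Named wells were C03, those matched to the study's other listed genes, the housekeeping wells, the 2 target wells above and below C03, the extremes, and the 5 nearest by Euclidean distance. Other named wells were chosen after their values were seen. Members and lists were chosen with earlier results of these data known. Python 3.11.15, numpy 2.4.6, pandas 2.3.3 and matplotlib 3.10.9 were used. The arithmetic was tested on simulated ratios without measurement noise, whose housekeeping mean was set to no change. That test says nothing about the choice of reference.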

Additional observations from a re-analysis of the deposited data

How the results depend on the processing

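Of 101 alternative values, 76 kept their side of the threshold or, for ranks and counts, stayed within 1.5 times the main one, 25 did not, and 0 changed from a call in one direction to the other. Keeping a side is not keeping a size: FN1 after 5FU went from log2 2.20 to 0.99 with H02, with SB431542 against 5FU from −1.10 to −0.50 with H03, and with SB431542 against control from 1.10 to 2.0 with H03. No paired analysis was possible because each group has 1 value per well. The log2 value of FN1 for 5FU+LiCl against 5FU moved to 0.52 with H01 and −0.50 with H04, and that for 5FU+SB431542 against control to 1.72e-05 with H02. The number of target wells higher after 5FU moved from 30 to 54 with the deposited values, H01, H03, H04, the mean without H02, the median of H01 to H05, or any difference from 0, and to 14 with H02. With LiCl, the wells within the threshold moved from 39 to 14 (H01), 24 (H04), 0 (any difference from 0) and 77 (0.75 log2). With SB431542, the lower wells moved from 38 to 63 (deposited values, H04, any difference from 0) and 13 (H03, 0.75 log2). The LiCl rank of FN1 moved from 54 to 27 at the first place of its step. Of the 5 nearest wells, 3 were shared by Manhattan distance and 2 by values against control. The wells lower than FN1 with SB431542 among those strongly higher after 5FU went by value from 0 to 1 at a limit of 1.5 log2, the 1 being B12 on the step of FN1, so that by step the count was 0 at both. Those with a lower share left went from 0 to 2 (B12 and F12). Those alternatives were chosen after seeing the data, as were the distance by step, which kept all 5 nearest wells in a tied group of 7, and leaving out the 7 target wells with identical ratios, which moved no rank or count by over 1.5 times. Each shift follows from the construction of its alternative (another reference, threshold, tie or distance). Alternatives based on Ct values were not run. With 1 value per group, the precision of each value is unknown, and signal over background was not examined.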
